A study of Homo sapiens with 2 samples.

Results

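The mucin genes of L3.6 cells were described in 1 library of control cells (shCtrl) and 1 library of cells with a stable knockdown of *ESE1* (shESE1). The 10 mucin genes were taken by gene symbol from the 60612 genes listed, and all 10 were found. Of these, 4 encode secreted gel-forming mucins (*MUC2*, *MUC5AC*, *MUC5B* and *MUC6*) and 6 encode membrane mucins (*MUC1*, *MUC3A*, *MUC4*, *MUC13*, *MUC16* and *MUC20*). L3.6 is an established human pancreatic ductal adenocarcinoma (PDAC) cell line. ESE1, encoded by *ELF3*, is an epithelium-specific transcription factor of the ETS family. Lentiviral shRNA against *ESE1* was used for the knockdown, and transduced cells were kept under puromycin. By its label the control had no treatment, but the study's methods describe a non-targeting shRNA in the same vector. By the methods the vector and the selection are shared by both groups, and by the label alone they would differ between them. By the methods, resistant clones were pooled for the study's experiments. The study lists shRNAs against the untranslated and the coding sequence of *ESE1*, and which of them the shESE1 library carries was not given in its label.

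Mucins are very large glycoproteins whose central domains are rich in serine, threonine and proline and carry dense O-linked sugar chains. Gel-forming mucins are joined through their cysteine-rich ends into polymers, packed into granules and secreted as mucus. Membrane mucins stand on the apical cell surface, where they form the glycocalyx and, through short cytoplasmic tails, contact signaling proteins. The healthy pancreatic duct carries little gel-forming mucin, while pancreatic precursor lesions and PDAC often gain gastric-type mucins and *MUC4*.

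Tandem repeats carry many of the sugar chains, and units of 5 of the genes are shown because long repeats can limit how reads are placed. Each unit below is the most frequent copy in the longest annotated transcript (GENCODE 29, GRCh38), with codons for serine and threonine in capitals. For *MUC2*, whose longest transcript has no annotated reading frame, the frame with the most such codons was used. Positions are those of the first copy, and codons that span the ends of a unit are not marked.
MUC1: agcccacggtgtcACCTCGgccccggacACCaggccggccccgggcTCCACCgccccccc
MUC2: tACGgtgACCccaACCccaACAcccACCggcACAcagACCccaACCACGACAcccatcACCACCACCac
MUC4: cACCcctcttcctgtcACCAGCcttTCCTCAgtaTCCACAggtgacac
MUC5AC: ctcctACAACCAGCACAACCTCTg
MUC5B: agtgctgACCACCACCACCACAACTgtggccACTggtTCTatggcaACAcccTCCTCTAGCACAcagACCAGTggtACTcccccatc
The *MUC1* unit (chr1:155191821-155191880, minus strand) is 60 bases long and occurred in 19 identical copies. The *MUC2* unit (chr11:1096165-1096233, plus strand) is 69 bases long with 9 copies, and 13 of its codons were for serine or threonine. The *MUC4* unit (chr3:195788035-195788082, minus strand) is 48 bases long with 14 copies. The short *MUC5AC* unit (chr11:1185245-1185268, plus strand) is 24 bases long with 16 copies, and the *MUC5B* unit (chr11:1243189-1243275, plus strand) is 87 bases long with 5. Each of these units lies within a single exon. Over whole coding sequences, serine and threonine codons made up between 24.0% (*MUC13*) and 49.6% (*MUC3A*) in the 9 mucins with an annotated frame. Of all 150-base stretches, the share that recurred within the same transcript was 24.3% in *MUC1*, 13.6% in *MUC20*, 12.4% in *MUC5B*, 10.5% in *MUC4*, 7.54% in *MUC2* and 5.16% in *MUC5AC*. It was 0.087% in *MUC16* and 0% in *MUC3A*, *MUC6* and *MUC13*. How the authors' counting treated reads from such stretches is not given in the sources used here.

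The values are the authors' FPKM, which scale fragments to transcript length and sequencing depth, and the authors' whole-number counts per gene. The shCtrl library held 56853971 counts and the shESE1 library 60786475. The targeted gene *ELF3* was at 20.4 FPKM in shCtrl and 10.7 FPKM in shESE1, from 9869 and 5624 counts, a log2 change of −0.88 in the direction of the label. Transcripts of the mitochondrial genome took 12.4% of counts in shCtrl and 3.79% in shESE1, a share that enters the FPKM of every other gene. With 1 library per condition no replicate check exists, no p-value was computed, and all values describe these libraries. Intervals and floors cover counting error only. Changes in FPKM are log2 ratios of shESE1 over shCtrl after 1 FPKM was added to each value, a scale that shrinks differences near or below 1 FPKM. For that reason each mucin is also given by its count ratio, the gene's share of library counts in shESE1 over that in shCtrl, with its exact 95% (Clopper-Pearson) interval.

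Mucin transcripts were lower in shESE1 cells at both ends of the range of levels. Summed over the 10 genes, mucins stood at 90.2 FPKM in shCtrl and 22.2 FPKM in shESE1, which is 4.07-fold lower. *MUC2* made up 82.3% of that sum in shCtrl and 83.8% in shESE1, and the sum of the other 9 genes was 15.96 and 3.596 FPKM, a decrease of 4.44-fold. All 9 mucins with counts had fewer counts in shESE1, and none was higher. In RNA from bulk cultures, fewer mucin-expressing cells and less mucin RNA per cell cannot be told apart.

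**Figure D1:**
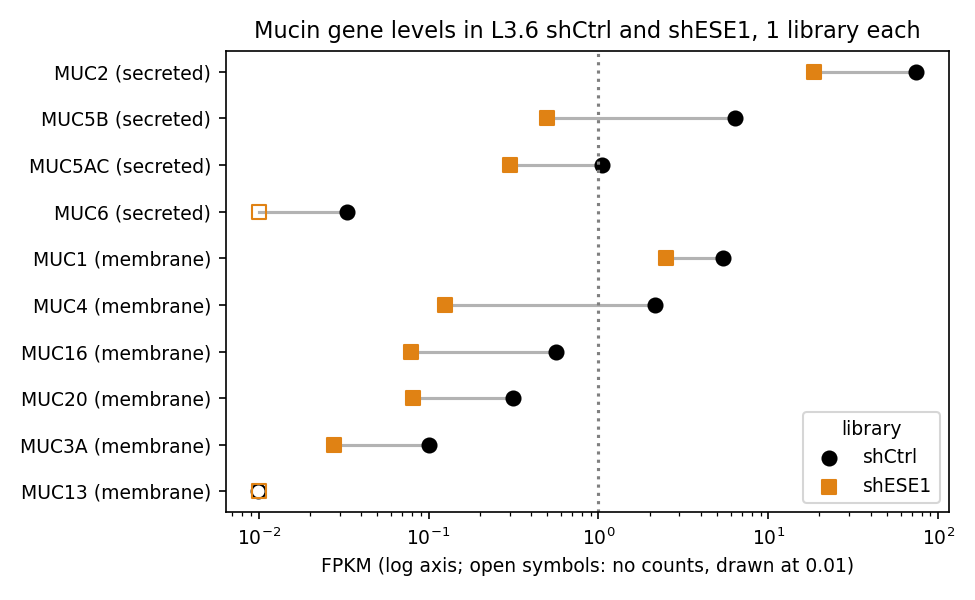
Levels of the 10 mucin genes in FPKM on a log axis, with circles for the shCtrl library and squares for the shESE1 library, 1 library each; open symbols stand for no counts and the dotted line marks 1 FPKM. The shESE1 symbol lies to the left of the shCtrl symbol for 9 genes, and *MUC13* had no counts in either library.

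Among the gel-forming mucins, *MUC2* is the main component of intestinal mucus and a goblet cell product. *MUC2* (ENSG00000198788, chromosome 11 from 1074875 to 1110511, plus strand) was at 74.2 FPKM in shCtrl and 18.6 FPKM in shESE1, from 63282 and 17273 counts. It was the most abundant mucin per length in both libraries, and its place among all genes by FPKM went from 444 to 2297. The log2 change was −1.94, and the count ratio was 3.92-fold lower (interval 3.85 to 3.98).

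*MUC5B* is a gel-forming mucin of airway and biliary glands. *MUC5B* (ENSG00000117983, chromosome 11 from 1223066 to 1262172, plus strand) was at 6.35 FPKM in shCtrl and 0.499 FPKM in shESE1, from 7949 and 682 counts. It was the second most abundant mucin in shCtrl and was below 1 FPKM in shESE1, where *MUC1* stood above it. Its log2 change of −2.29 was the largest decrease of the 10 genes with 1 FPKM added, but with 5 FPKM added it was −1.05 and that of *MUC2* was −1.75. By counts it was 12.5-fold lower (interval 11.5 to 13.5). Between shCtrl and shESE1 its share of the summed mucin FPKM went from 7.04% to 2.25%.

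*MUC5AC* is the gel-forming mucin of the gastric surface that appears early in pancreatic neoplasia. *MUC5AC* (ENSG00000215182, chromosome 11 from 1157953 to 1201138, plus strand) was at 1.05 FPKM in shCtrl and 0.302 FPKM in shESE1, from 1235 and 387 counts. Its level sat at the border of 1 FPKM, so that the log2 change with the pseudocount was only −0.66. By counts it was 3.41-fold lower (interval 3.04 to 3.83), an interval that ends just below that of *MUC2*. *MUC6*, a mucin of gastric glands (ENSG00000184956, chromosome 11 from 1012823 to 1036718, minus strand), was at 0.0331 FPKM in shCtrl from 19 counts and had 0 counts in shESE1. Against a floor of 3 counts in shESE1 it was 6.77-fold lower, whereas its exact 95% interval reached down to 4.99-fold. At this level its FPKM change was −0.05.

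Among the membrane mucins, *MUC1* is the widely expressed mucin of ductal epithelium, whose cleaved tail binds kinases and beta-catenin. *MUC1* (ENSG00000185499, chromosome 1 from 155185824 to 155192915, minus strand) was at 5.41 FPKM in shCtrl and 2.48 FPKM in shESE1, from 1723 and 865 counts. By count ratio it had the smallest decrease of the mucins with counts, 2.13-fold, and the only interval (1.96 to 2.31) that reached below 2-fold. Its log2 change was −0.88, short of 2-fold, and its share of the summed mucin FPKM went from 6.0% to 11.2%.

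*MUC4* is a membrane mucin that binds the receptor ERBB2 and is gained in PDAC. *MUC4* (ENSG00000145113, chromosome 3 from 195746765 to 195811973, minus strand) was at 2.14 FPKM in shCtrl and 0.125 FPKM in shESE1, from 3030 and 197 counts. The log2 change was −1.48, and the count ratio was 16.4-fold lower (interval 14.2 to 19.1). By counts this was the largest decrease among the 8 mucins with counts in both libraries, and its interval overlapped none of theirs.

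*MUC16* carries the CA125 epitope and binds mesothelin. *MUC16* (ENSG00000181143, chromosome 19 from 8848844 to 8981342, minus strand) was at 0.561 FPKM in shCtrl and 0.0789 FPKM in shESE1, from 1657 and 254 counts. With 43830 exonic bases it is the longest of the 10 genes, so that over 1000 counts gave a level below 1 FPKM. Its log2 change was −0.53, while by counts it was 6.97-fold lower (interval 6.11 to 7.99).

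The remaining membrane mucins were at low levels. *MUC3A*, an intestinal brush border mucin (ENSG00000169894, chromosome 7 from 100949534 to 100968347, plus strand), was at 0.101 FPKM in shCtrl and 0.0277 FPKM in shESE1, from 78 and 24 counts. It was 3.47-fold lower, with a wide interval of 2.17 to 5.74. *MUC20*, which binds the receptor MET (ENSG00000176945, chromosome 3 from 195720884 to 195741123, plus strand), was at 0.314 FPKM in shCtrl and 0.0805 FPKM in shESE1, from 145 and 41 counts, or 3.78-fold lower (interval 2.66 to 5.49). The value for *MUC20* is uncertain, because 51.4% of the 100-base words of its transcripts also occur in other genes, 34.8% in *MUC20-OT1* and 29.7% in the pseudogene *MUC20P1*. *MUC20-OT1* overlaps *MUC20* by 19081 bases on the same strand and had 987 and 1021 counts. Summed with both genes, *MUC20* had 1167 counts in shCtrl and 1066 in shESE1, a log2 count ratio of −0.23. Most counts of this sum are those of *MUC20-OT1*, so it cannot show the change of *MUC20* itself. The other 9 mucins shared 0% of such words with another gene. *MUC13*, a mucin of gastric and colonic epithelium (ENSG00000173702, chromosome 3 from 124905442 to 124934751, minus strand), had 0 counts in both libraries, which allows a level of up to 0.0528 CPM in shCtrl and 0.0494 CPM in shESE1.

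**Figure D2:**
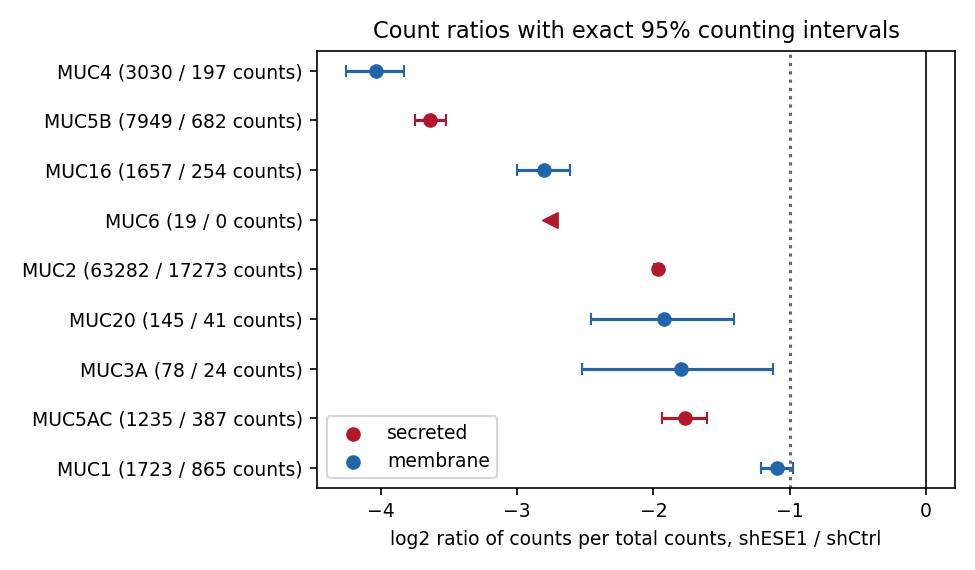
Log2 count ratio of the 9 mucins with counts, shESE1 over shCtrl, with exact 95% counting intervals; the counts in shCtrl and shESE1 stand beside each symbol, the arrowhead of *MUC6* is a bound from the floor of 3 counts, and the dotted line marks 2-fold lower. *MUC4* at −4.04 and *MUC5B* at −3.64 lie farthest to the left and *MUC1* at −1.09 nearest to 0.

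Ordered by count ratio, *MUC4* (16.4-fold lower) stood before *MUC5B* (12.5-fold) and *MUC16* (6.97-fold), and these 3 intervals did not overlap. *MUC6* has no place in this order, because its 6.77-fold is a bound and its interval, from 4.99-fold, has no upper end. The intervals of *MUC2*, *MUC20* and *MUC3A* overlapped one another, as did those of *MUC5AC*, *MUC20* and *MUC3A*. *MUC1* was last, and its interval overlapped only that of *MUC3A*. The order by decrease was not the order by level, since *MUC2*, at the highest level, was in the middle of it.

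Of the 5 mucins with at least 1 FPKM in a library, 3 (*MUC5B*, *MUC2* and *MUC4*) were lower by 2-fold or more and 0 were higher by as much. *MUC5B*, *MUC4* and *MUC5AC* reached 1 FPKM in shCtrl alone, so the filter kept them through the library where they were high. *MUC2* and *MUC1* reached it in both libraries, and of these only *MUC2* was past 2-fold. Over all 12520 genes at that level, 3.26% had decreased by this much and 3.14% had increased by it, around a median log2 change of 0.02. The balance of these calls moved with the scaling. The FPKM values gave 408 decreases and 393 increases, totals without mitochondrial genes gave 568 and 293 (median −0.10), and TPM gave 873 and 1432 (median 0.20). Without mitochondrial genes 4 of 5 mucins were past 2-fold lower, as were 4 of 6 as TPM, and none was higher under either.

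By count ratio, 9 of 9 mucins with at least 10 counts passed 2-fold lower, and their median log2 ratio was −1.97. The interval lay wholly beyond 2-fold in 8 of the 9. Over all 21147 genes with at least 10 counts, 19.0% passed 2-fold lower, 8.86% passed 2-fold higher, and the median was −0.10. Genes with few counts passed 2-fold more often, and 32.0% of the 10847 genes with at least 10 but under 1000 counts were lower. That is the setting of *MUC3A*, *MUC6* and *MUC20*, for which a count ratio past 2-fold was common among genes of their depth. Of the 10300 genes with at least 1000 counts 5.28% were at least 2-fold lower, as were 6 of the 6 mucins at this depth (*MUC1*, *MUC2*, *MUC4*, *MUC5AC*, *MUC5B* and *MUC16*). These counts were summed over both libraries, and in shESE1 alone only *MUC2* (17273) reached 1000. The filter thus kept the other mucins through shCtrl, the library where they were high.

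Long genes were lower in shESE1 across the transcriptome. Among genes with at least 1000 counts the median log2 count ratio went from 0.38 under 2000 exonic bases to −0.30 over 12000, and Spearman's rho between exonic length and count ratio was −0.32 over 10288 genes, which share the same pair of libraries. Of the 6 mucins at this depth, 5 have over 12000 exonic bases, from 12667 in *MUC2* to 43830 in *MUC16*, and *MUC1* has 4717. Of the 727 genes of that length and depth 12.5% were at least 2-fold lower, and 5 of the 5 long mucins were, with log2 count ratios from −4.04 (*MUC4*) to −1.77 (*MUC5AC*). Of these long mucins only *MUC2* reached 1000 counts in shESE1 alone, so the depth filter kept the others through shCtrl. The part of gene length in the mucin values was not tested.

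**Figure D3:**
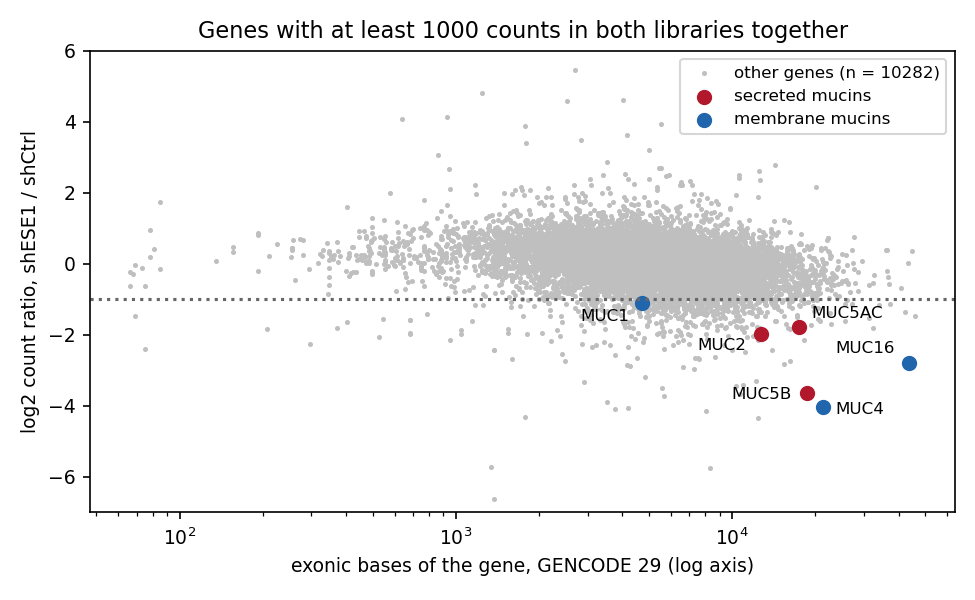
Log2 count ratio, shESE1 over shCtrl, against the exonic bases of each gene on a log axis, for genes with at least 1000 counts in both libraries together; grey points are other genes and colored points are mucins. The cloud drifts downward to the right, from a median of 0.38 under 2000 bases to −0.30 over 12000 bases. *MUC4* lies at −4.04, *MUC5B* at −3.64 and *MUC16* at −2.80.

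Gel-forming and membrane mucins were set side by side. The gel-forming mucins summed to 81.7 FPKM in shCtrl and 19.4 FPKM in shESE1 (4.21-fold lower), and the membrane mucins to 8.52 and 2.79 FPKM (3.05-fold lower). On the FPKM scale 2 of 3 measured gel-forming mucins and 1 of 2 membrane mucins passed 2-fold lower, and the median log2 changes were −1.94 and −1.18. By count ratio 4 of 4 and 5 of 5 were, with medians of −2.36, in which *MUC6* stands at its bound, and −1.92, which is the value of the uncertain *MUC20*. With *MUC20* summed with the genes that share its sequence, 4 of 5 membrane mucins passed and the middle value was that of *MUC3A*, −1.80. Each class held a gene past 10-fold by counts (*MUC5B* and *MUC4*), and the ranges of the classes overlapped. The order of the class medians depended on the pseudocount, since with 0.1 FPKM in place of 1 the median of the gel-forming class was higher by 0.21.

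The 4 gel-forming mucins lie in a single cluster on chromosome 11, from 1012823 to 1262172, a span of 249.35 kb in which *MUC6* is read on the minus strand and the others on the plus strand. By count ratio all 4 were at least 2-fold lower, *MUC6* at its bound, and with 1 FPKM added only *MUC2* and *MUC5B* were. The protein-coding genes at 1 FPKM or more that flank the cluster stayed within 2-fold on both scales. *AP2A2*, an adaptor subunit of endocytosis next to *MUC6*, was at 6.52 FPKM in shCtrl and 5.71 FPKM in shESE1 (log2 change −0.16). *TOLLIP*, an inhibitor of Toll-like receptor signaling next to *MUC5B*, was at 4.37 and 6.46 FPKM (0.47), and *CHID1* at 7.45 and 9.26 FPKM (0.28). The antisense gene *MUC5B-AS1* within *MUC5B* had 0 counts in both libraries.

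**Figure D4:**
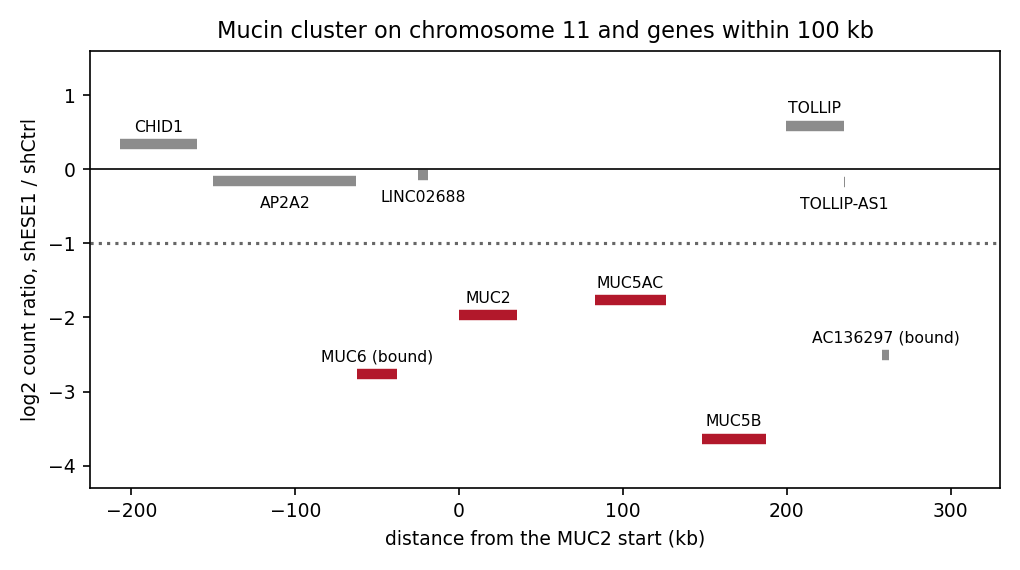
Log2 count ratio, shESE1 over shCtrl, of the gel-forming mucin genes (red) and of genes within 100 kb of them with at least 10 counts (grey), against the distance in kb from the *MUC2* start; bars span the genes, and "bound" marks genes with 0 counts in shESE1 set to the floor of 3 counts. The mucins lie between −3.64 and −1.77, while *CHID1*, *AP2A2* and *TOLLIP* lie between −0.16 and 0.59. *AC136297*, with 16 counts in shCtrl and 0 in shESE1, lies at a bound of −2.51.

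Near all 10 mucins, 22 protein-coding genes within 100 kb reached 1 FPKM. Of these 1 was at least 2-fold lower and 0 were higher, beside 3.26% and 3.14% of all 12520 genes at that level. The median log2 change of the 22 neighbors was 0.06, with a range from −1.03 to 0.83. The lower gene was the thrombospondin gene *THBS3* beside *MUC1*, at 3.73 FPKM in shCtrl and 1.31 FPKM in shESE1. The genes at the other end were *SRRT*, an RNA-processing factor near *MUC3A* (0.83), and *MTX1*, a mitochondrial import subunit near *MUC1* (0.57). *ITGB5*, an integrin subunit next to the undetected *MUC13*, was at 21.99 and 29.5 FPKM (0.41), and *TNK2*, a kinase beside *MUC4*, at 2.38 and 1.93 FPKM (−0.21). *MUC12*, the membrane mucin next to *MUC3A*, went the other way from its neighbor with 4 counts in shCtrl and 23 in shESE1, a log2 count ratio of 2.43 (interval 0.88 to 4.42), and was named after its values were seen.

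ETS factors bind a GGAA core, so the promoters of the most abundant gel-forming mucin and of *MUC4*, 16.4-fold lower by counts, are shown. Both are the 250 bases before the RefSeq transcript start (GRCh38.p14), 5′ to 3′ on the gene's strand, with GGAAG, or its complement CTTCC where it lies on the other strand, in capitals. RefSeq promoters were matched for 6 of the 10 mucins.
MUC2 promoter (chr11:1074624-1074873, plus strand): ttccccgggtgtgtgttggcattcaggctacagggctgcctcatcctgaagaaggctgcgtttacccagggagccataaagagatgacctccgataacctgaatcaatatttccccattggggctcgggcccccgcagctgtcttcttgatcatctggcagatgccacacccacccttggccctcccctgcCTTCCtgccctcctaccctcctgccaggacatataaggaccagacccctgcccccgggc
MUC4 promoter (chr3:195811930-195812179, minus strand): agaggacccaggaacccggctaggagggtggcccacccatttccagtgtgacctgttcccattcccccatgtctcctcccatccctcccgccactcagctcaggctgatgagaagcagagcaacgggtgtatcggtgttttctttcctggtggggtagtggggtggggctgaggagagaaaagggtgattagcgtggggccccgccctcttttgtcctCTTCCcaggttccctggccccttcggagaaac
Motifs were searched on both strands. The core GGAA occurred 3 times in the *MUC2* window and 7 times in the *MUC4* window, beside a median of 3 over 34788 RefSeq promoters of the same length, of which 92.8% held it and 18.6% held 5 or more. GGAAG, which contains that core, occurred 1 time in each window and was in 65.1% of all promoters. The longer CCGGAAG was in neither window and in 8.50% of all promoters. Of the other matched promoters, that of the weakly expressed *MUC3A* had 8 matches of GGAA. That of *MUC16* had 5, that of the undetected *MUC13* had 4 and that of *MUC1* had 2. GGAAG had 2 matches each in the promoters of *MUC16* and *MUC13*, 1 in that of *MUC1* and 6 in that of *MUC3A*. The *MUC16* window (chr19:9065752-9066001) does not adjoin the *MUC16* entry counted here, which ends at 8981342. Over all promoters 30.9% held GGAAG 2 or more times and 1.24% held it 5 or more times. A match of letters is not a binding site, and no binding was measured in these libraries.

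The genes around mucin production were described from lists of known roles. The calls in each list below stand beside those over all 12520 genes at 1 FPKM or more, of which 3.26% were at least 2-fold lower and 3.14% higher. Of 15 genes of mucin granules and the mucus layer, 6 were measured at 1 FPKM or more, 2 of them were at least 2-fold lower and 1 was higher, with a median of −0.48. *AGR2*, a protein disulfide isomerase required in mice for intestinal Muc2 production, was at 46.3 FPKM in shCtrl and 13.8 FPKM in shESE1 (log2 change −1.67). *DMBT1*, a mucosal scavenger glycoprotein, was at 65.0 and 3.64 FPKM (−3.83). The trefoil peptides, which are secreted together with gastric mucins, lay on the other side. *TFF1* was at 75.8 FPKM in shCtrl and 173 FPKM in shESE1 (1.18), and *TFF2* was at 7.56 and 12.1 FPKM (0.61). *ZG16B* had a log2 change of −0.49. In shCtrl *TFF1* and *MUC2* stood at like levels per length, and in shESE1 *TFF1* was far above.

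Of 21 regulators of mucous cell genes, 15 were measured, 1 was at least 2-fold lower and 0 were higher (median −0.31). *CREB3L1*, a membrane-bound factor of secretory cells, was at 6.67 FPKM in shCtrl and 2.73 FPKM in shESE1 (−1.04). *XBP1*, the transcription factor of the unfolded protein response, was at 51.3 and 26.7 FPKM (−0.92), and *ERN1*, the kinase that splices its mRNA, was at 1.59 and 0.517 FPKM (−0.77). *CREB3L4* had a log2 change of −0.62. *SPDEF*, an ETS factor of goblet cell maturation, was below 1 FPKM with 67 counts in shCtrl and 6 in shESE1, a log2 count ratio of −3.58 (interval −5.07 to −2.38), and was named after its values were seen. Other regulators, also named after their values were seen, lay on the other side. *FOXA2*, a forkhead factor of gut epithelium, had 147 counts in shCtrl and 345 in shESE1, a log2 count ratio of 1.13 (interval 0.85 to 1.42) and an FPKM change of 0.61. *GATA6*, a factor of the classical PDAC subtype, had 530 and 871 counts (log2 count ratio 0.62), and *FOXA3* had 0 and 12.

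Of 19 enzymes that start or extend mucin-type O-glycans, 15 were measured, 2 were at least 2-fold lower and 1 was higher (median −0.02). *ST6GALNAC1*, which makes sialyl-Tn, was at 6.35 FPKM in shCtrl and 1.98 FPKM in shESE1 (−1.30). *GCNT3*, the mucin-type core 2 and core 4 branching enzyme, was at 3.49 and 0.906 FPKM (−1.24). *C1GALT1C1*, the chaperone that the core 1 synthase needs, was at 1.42 and 20.5 FPKM (3.15). The initiating transferases *GALNT3* and *GALNT12* had log2 changes of −0.76 and −0.73. The synthase itself, *C1GALT1*, was at 3.02 FPKM in shCtrl and 2.95 FPKM in shESE1 and was named after its values were seen. *GALNT4*, 1 of the 15 measured enzymes, shares 93.0% of its words with other genes.

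Of 15 binding partners and sheddases of membrane mucins, 14 were measured, 1 was at least 2-fold lower and 1 was higher (median −0.34). *EGFR*, a receptor that MUC1 binds, was at 18.2 FPKM in shCtrl and 7.35 FPKM in shESE1 (−1.20). *EZR*, encoding the cortical linker ezrin, was at 66.5 and 146 FPKM (1.13). *MSLN*, which encodes the MUC16 ligand mesothelin, had a log2 change of −0.72, and the proteases *ADAM10* and *ADAM9* had −0.82 and −0.59. Of 14 other genes of the mucin family or with mucin-like domains, 2 were measured, namely *PODXL* (−0.15) and *CD164* (−0.06), and 7 had 0 counts in both libraries.

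**Figure D5:**
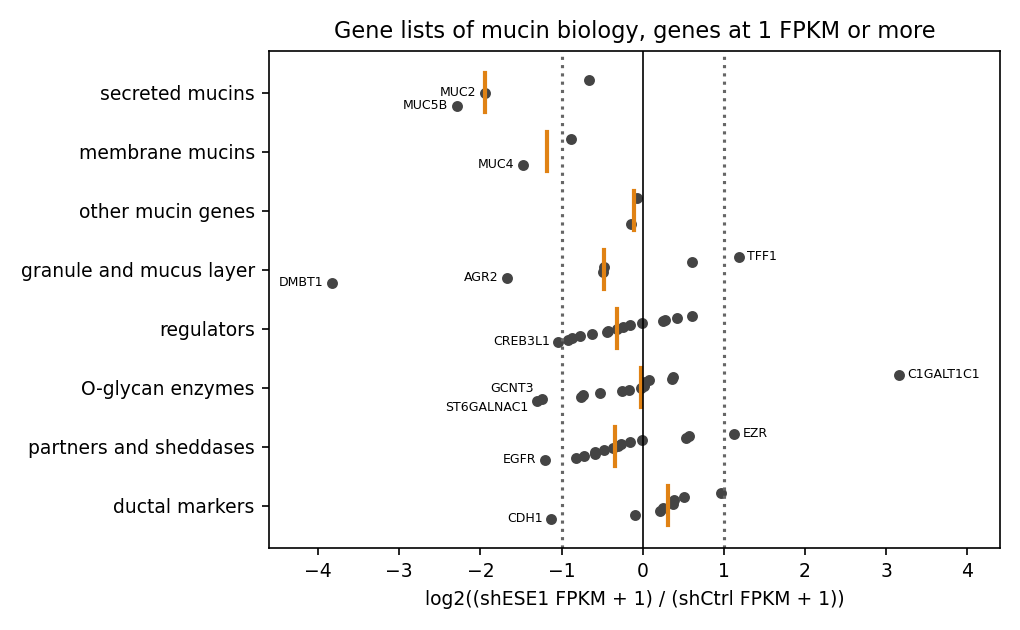
Log2((shESE1 FPKM + 1)/(shCtrl FPKM + 1)) of the genes with at least 1 FPKM in a library, by list; each point is a gene, orange bars are list medians and dotted lines mark 2-fold, with the genes past them named. The medians are −1.94 for gel-forming and −1.18 for membrane mucins, between −0.48 and −0.02 for the next 5 lists and 0.31 for ductal markers.

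The cell type of the libraries was checked against markers. Of 9 ductal markers, 8 were measured, with a median log2 change of 0.31. *KRT19* was at 464 FPKM in shCtrl and 606 FPKM in shESE1, while *CDH1*, encoding E-cadherin, was at 16.3 and 6.95 FPKM (−1.13). *TSPAN8*, *SOX9* and *KRT7* had log2 changes of 0.97, 0.51 and 0.37, and *CFTR* had 0 counts in both. Of 8 goblet cell markers 1 reached 1 FPKM, *MUC2* itself, and *TFF3*, *CLCA1*, *ZG16*, *ITLN1* and *ATOH1* had 0 counts in both libraries. The other 2 were detected below 1 FPKM, *SPDEF* with 67 counts in shCtrl and 6 in shESE1 and *FCGBP*, a mucus-binding protein gene, with 4 and 12. Of 7 gastric markers 3 were measured, *TFF1*, *TFF2* and *MUC5AC*.

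Markers of other cell types were low or at 0. Of 7 acinar markers 6 had 0 counts in both libraries and *CEL* was at 3.57 FPKM in shCtrl and 1.12 FPKM in shESE1 (−1.11), a gene that shares 19.7% of its words with other genes. None of 6 endocrine markers was measured, and 5 had 0 counts in both. Of 7 fibroblast markers only *COL1A1* was measured, at 4.53 and 2.25 FPKM (−0.77). Of 7 immune markers only *CD68* was, at 3.70 and 7.94 FPKM (0.93), and *PTPRC* had 0 counts, while 80.0% of the *CD68* words occur in other genes. Of 5 endothelial markers only *CDH5* was, at 1.18 and 1.16 FPKM (−0.02).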

How the data were processed

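RNA was sequenced from 1 library of L3.6 shCtrl cells and 1 library of shESE1 cells, prepared from poly(A) RNA with dUTP-marked second strands. The deposited FPKM values were scaled by the authors to transcript length and depth, and a gene with no reads carries 0.0001, which was read as 0. Raw counts per gene were deposited beside them as whole numbers. According to the submitters' processing notes StringTie, HISAT2 and fastp were used, with builds mm10 and GRCh38. Their roles and versions, like the counting tool, are not given in the sources consulted. Gene positions match human GRCh38.

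The mucins and gene lists were chosen with earlier results of these data known. Named genes were all 10 mucins, *ELF3*, *AGR2*, up to 5 genes with the largest change in each list, and protein-coding neighbors within 100 kb at 1 FPKM or more, and not all of those neighbors are given. Genes with at least 1 FPKM in a library were compared with a pseudocount of 1 FPKM and counted at 2-fold. Count ratios used genes with at least 10 counts summed, exact conditional intervals and a floor of 3 counts. Mucins sharing at least 20% of 100-base words, taken every 10 bases from GENCODE 29 transcripts, were treated as uncertain. This rule was not applied to the gene lists. Exonic length came from the same annotation for 98.3% of compared genes. No test was run, because neither condition had a replicate. Other pseudocounts, filters, fold thresholds and scalings were tried, with TMM from edgeR 4.0.16 in R 4.3.3. Other minimums of counts, and the shares among genes of like depth or length, were chosen after seeing the data. The calculation was tested on simulated data. Calculations used Python 3.11.15, numpy 2.4.6, pandas 2.3.3, scipy 1.17.1 and matplotlib 3.10.9.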

Additional observations from a re-analysis of the deposited data

How the results depend on the processing

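The 3 mucins at least 2-fold lower in FPKM became 5 of 5 with a pseudocount of 0.1 FPKM and 5 of 5 at a threshold of 1.5-fold. Both settings can also raise the calls among other genes, and the shares over all genes were not computed for them. The count was 2 of 5 with a pseudocount of 5 FPKM and at 3-fold, and 2 of 3 with a filter of 5 FPKM. It was 4 of 6 as TPM and 4 of 5 with mitochondrial genes left out. Without a filter it was 3 of 9, and with the median ratio or TMM scaling 3 of 5. No mucin was higher under any of these settings. Over all genes compared, the median ratio gave 441 decreases and 330 increases of at least 2-fold among 12485 genes. TMM scaling gave 375 and 441 among 12507 genes. The shares over all genes were not computed for the other pseudocounts, filters and fold thresholds. The difference of class medians, gel-forming minus membrane, was −0.76. It turned to 0.21 with the pseudocount of 0.1 FPKM and was −1.24 with the filter of 5 FPKM, where 3 mucins remained. *MUC1* passed 2-fold in FPKM with mitochondrial genes left out (−1.003) and with the pseudocount of 0.1 FPKM (−1.09). By count ratio 9 of 9 mucins were lower under the median ratio, TMM and totals without mitochondrial genes, and 8 of 9 when *MUC20* was summed with the genes that share its sequence. Under these settings the shares over all genes were not computed, and the log2 count ratio of *MUC1* ranged from −1.23 to −1.04. No paired analysis was possible because each condition had 1 library. Depth limits *MUC6*, *MUC3A* and *MUC20*, with at most 145 counts in a library, and *MUC13*, which was not detectable at this depth.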
